A study of Mus musculus with 12 samples.

Results

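Tmem176a and Tmem176b are 2 neighbouring mouse genes, taken as 2 named rows among the 19910 gene symbols of a count table of retrovirally transduced bone marrow. Both were among the 10993 genes that passed the filter on low counts. The rows were picked because their response to both mutants together departed from the sum of the responses to each mutant. Their levels, changes and departure are therefore given as a description, with standard errors (SE) and without p-values.

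RNA was sequenced in 12 libraries, 3 for each of 4 groups. Bone marrow of female C57BL/6J mice aged 6 to 10 weeks was transduced with retroviral vectors: EMPTY + EMPTY, SETBP1 (D868N) + EMPTY, EMPTY + NRAS (G12D), or SETBP1 (D868N) + NRAS (G12D). These groups are called empty, SETBP1, NRAS and both. All libraries thus came from transduced marrow of one strain, which the titles call murine leukemia cells, also in the empty group. The mutants were expressed from vectors, not from the endogenous genes; the promoter of the vectors and the origin of the replicates (separate mice or cultures) are not given in the sources used here. P-values therefore measure the spread between these libraries, which may be technical. Genes other than the pair were tested with edgeR's quasi-likelihood test, with Benjamini-Hochberg adjustment over all genes tested and a threshold of 0.05, and "rose" and "fell" refer to that test. Levels are normalised CPM, counts divided by the library total after correction with TMM factors.

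TMEM176A and TMEM176B are related multi-pass membrane proteins, similar in form to the MS4A family, and are found mainly in intracellular vesicles, where they have been described as cation channels. They are known in dendritic cells, monocytes and macrophages, and in some lymphoid cells. TMEM176B has been linked to restraint of the inflammasome and to the handling of antigen for MHC class II.

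On GRCm38 both genes lie on chromosome 6, on opposite strands, and in GENCODE their 5′ ends overlap. GENCODE M21 places Tmem176b (ENSMUSG00000029810.15) on the minus strand at chr6:48833818-48841496 and Tmem176a (ENSMUSG00000023367.14) on the plus strand at chr6:48840919-48847071. The spans overlap by 578 bases, and 81 exonic bases are shared, which is 3.42% of the exonic length of Tmem176b and 2.13% of that of Tmem176a. In RefSeq the span of Tmem176b, chr6:48833811-48845948, covers that of Tmem176a entirely. The strand setting of the counting is not given in the sources used here, so reads in shared stretches cannot be told apart, and the 2 rows are not certain to be independent measurements.

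Among the RefSeq promoter windows used, the nearest starts of the 2 genes were at 48841374 for Tmem176b and at 48841483 for Tmem176a. The 108 bases between these starts (chr6:48841375-48841482) lie before both of them. They also lie inside the RefSeq span of Tmem176b, which reaches further upstream, and inside the GENCODE spans of both genes. An exon of 1 GENCODE transcript of Tmem176b covers them. The part that holds the 1 match to the extended ETS motif GGAAGT is shown because ETS factors include the myeloid regulator PU.1. It is given on the plus strand (RefSeq, GRCm38.p6, chr6:48841426-48841455) with the match in capitals.

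Stretch between the starts of Tmem176b and Tmem176a: agctgcctgccaGGAAGTgttgaggtctgc

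The 108 bases held 0 CpG dinucleotides, against a median of 3.0 over 32851 promoter windows of the same length, and their GC content was 63.9%, against a median of 54.6%. GGAAGT, searched on both strands, was present in 10.6% of those windows. The core GGAA was found at 3 places, 1 of them inside GGAAGT, and occurred in 69.6% of the windows. The longer PU.1 motif GAGGAAGT, held by 1.22% of windows, gave 0 matches. The same held for the AP-1 motif TGANTCA, the NF-Y motif CCAAT, the GC box motif GGGCGG, the promoter box motif TATAAA, the nuclear receptor motif AGGTCA, the E-box motif CACGTG, the RUNX motif TGTGGT and the MEIS motif TGACAG. It also held for the motifs of C/EBP, NF-kB, interferon-regulatory factors and HOX with PBX. The motifs without a match were held by 0.521% to 25.5% of the windows. A match, or none, describes these letters only.

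Total counts per library ran from 7085894 to 8864919, and 11835 to 12800 genes had a count. Nras counts were 626 to 741 in libraries without the NRAS vector and 10517 to 13502 in those with it. Setbp1 had 0 counts in every library without the SETBP1 vector and 5 to 17 in those with it. SETBP1 replicate 3 stood apart, with correlations of log2 CPM across genes of 0.946 and 0.953 with the rest of its group, against 0.984 to 0.991 for other pairs within a group.

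Tmem176b was highest with SETBP1 alone, intermediate with empty vectors, lower with NRAS alone and lowest with both mutants. Its normalised CPM was 59.8, 65.4 and 61.3 in the 3 empty libraries, from counts of 541, 515 and 454. The SETBP1 libraries gave 102.7, 92.9 and 106.2, all above the empty libraries. In the NRAS libraries the gene stood at 23.3, 27.9 and 22.3, lower than in any empty library. With both mutants it stood at 11.3, 16.6 and 14.7, from counts of 81, 130 and 109, so that none of the 4 groups overlapped another.

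In group means, Tmem176b was at 62.2 ± 2.88 normalised CPM (SD, n = 3) with empty vectors and at 100.6 ± 6.91 with SETBP1. It was at 24.5 ± 2.98 with NRAS and at 14.2 ± 2.68 with both. Each step in this order exceeded the SDs on either side of it. SETBP1 alone went with a level 1.62-fold that of empty vectors (log2 0.70, SE 0.12). NRAS alone went with a level 2.54-fold lower (log2 -1.34, SE 0.13). On top of NRAS, SETBP1 went with a 1.72-fold lower level (log2 -0.78, SE 0.14), the opposite sign to that without NRAS. Against empty vectors, both mutants gave a 4.36-fold lower level (log2 -2.12, SE 0.14), and against SETBP1 alone a 7.06-fold lower one (log2 -2.82, SE 0.14).

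Tmem176a showed the same order of group means, from fewer counts. Its normalised CPM was 19.1, 23.0 and 22.4 in the empty libraries, from counts of 173, 181 and 166. SETBP1 libraries stood at 28.4, 40.4 and 34.9, all above the empty ones. NRAS libraries stood at 5.15, 7.71 and 8.11, from counts of 39, 57 and 64, and those with both mutants at 4.62, 4.61 and 6.59, from counts of 33, 36 and 49. The groups with NRAS did not overlap those without it, but NRAS and both overlapped one another.

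The mean of Tmem176a was 21.5 ± 2.07 normalised CPM (SD, n = 3) with empty vectors and 34.6 ± 5.99 with SETBP1. It was 6.99 ± 1.61 with NRAS and 5.27 ± 1.14 with both. SETBP1 alone went with a 1.61-fold level (log2 0.68, SE 0.19), close to the ratio for Tmem176b. NRAS alone went with a 3.07-fold lower level (log2 -1.62, SE 0.21) and both mutants with a 4.07-fold lower one (log2 -2.02, SE 0.22). Both mutants and NRAS alone differed by log2 -0.41 (SE 0.23), within the spread of the libraries, so these neighbours in the order could not be told apart for Tmem176a. Both mutants and SETBP1 alone differed by log2 -2.71 (SE 0.21).

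**Figure D1:**
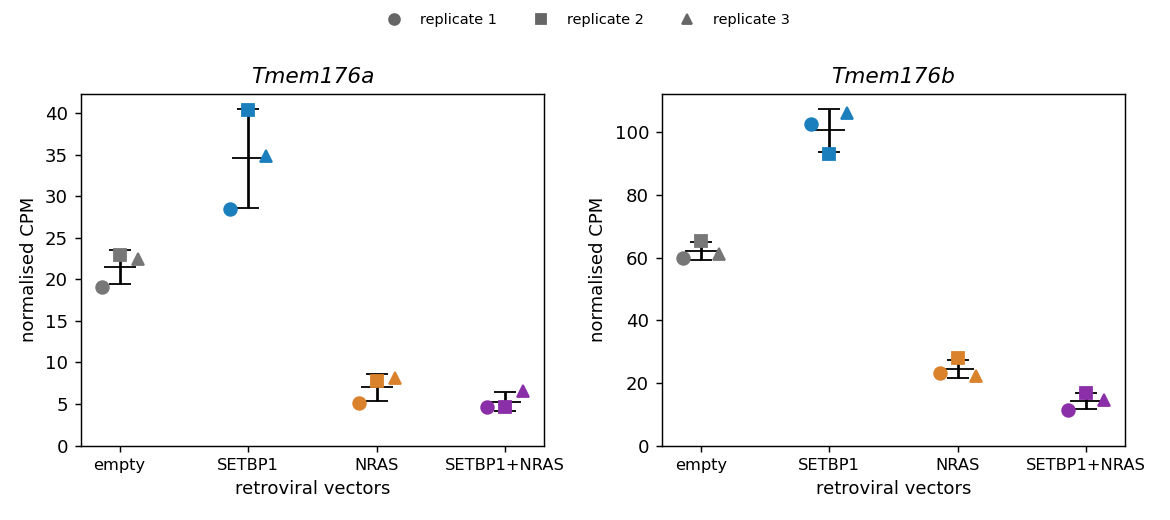
Normalised CPM of Tmem176a (left) and Tmem176b (right) in each library by group of retroviral vectors; markers give the replicate number, and bars the mean ± SD of 3 libraries. The 3 SETBP1 libraries lie above the 3 empty libraries for both genes, while NRAS and both overlap for Tmem176a and do not for Tmem176b.

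In bulk RNA, fewer cells that express these genes and less RNA per cell cannot be told apart. Groups free of overlap are common in these data: of all genes tested, SETBP1 and empty did not overlap for 33.2%, NRAS and empty for 56.3%, both and empty for 61.2%, both and SETBP1 for 48.8%, and both and NRAS for 25.2%. Tmem176b was 1 of 52 genes, or 0.473%, for which every SETBP1 library lay above every empty one and every library with both mutants was lower than every NRAS one. The pair was picked on these contrasts, and nothing is read from those shares. The comparisons with empty vectors share the empty libraries.

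The departure is the log2 change with both mutants minus the sum of the log2 changes with each alone. It was -1.48 (SE 0.19) for Tmem176b and -1.09 (SE 0.30) for Tmem176a, so that levels with both mutants were 2.78-fold and 2.13-fold lower than the sum gives. By size, Tmem176b ranked 214 and Tmem176a ranked 416 among 10993 genes. The departure passed the adjusted threshold for 5 genes, or 0.0455%, and had an unadjusted p under 0.05 for 12.9%; the choice of the pair used this contrast.

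In levels, the log2 changes added up give 39.6 normalised CPM of Tmem176b with both mutants, and the linear changes added up give 62.9. The measured mean was 14.2, a linear departure of -48.7 (SE 4.90). For Tmem176a the same sums give 11.2 and 20.1, against a measured 5.27, a linear departure of -14.8 (SE 3.83). The sign of the departure was thus the same on both scales for both genes.

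**Figure D2:**
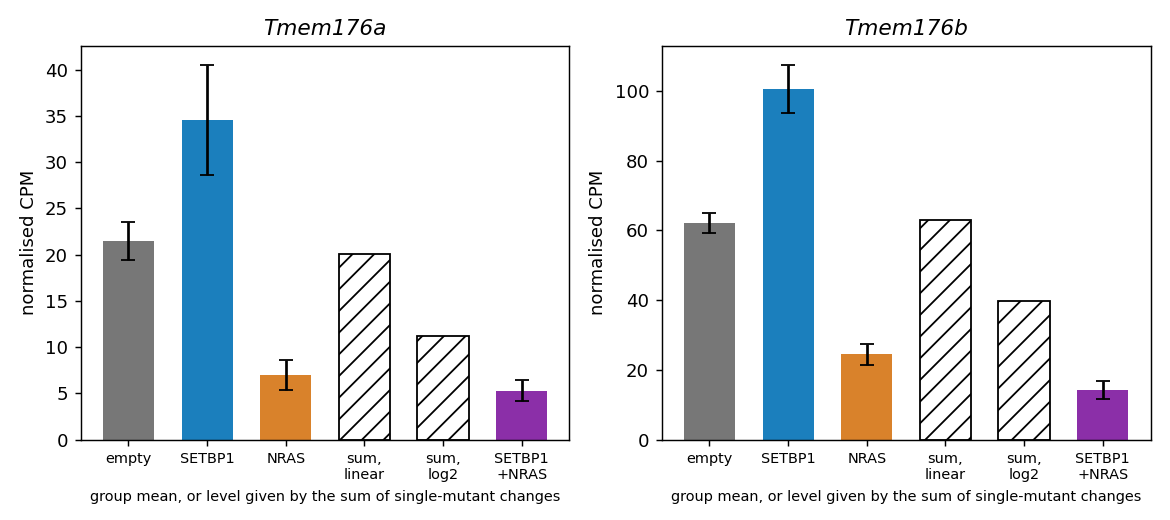
Mean normalised CPM (± SD, 3 libraries) of Tmem176a and Tmem176b in the 4 groups, with hatched bars for the levels that the single-mutant changes give when added on the linear or on the log2 scale. For Tmem176b the measured 14.2 with both mutants lies under the hatched 62.9 and 39.6, and for Tmem176a the measured 5.27 lies under 20.1 and 11.2.

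Without SETBP1 replicate 3, the library that stood apart, the departure was -1.43 (SE 0.18) for Tmem176b and -1.09 (SE 0.29) for Tmem176a. SETBP1 against empty was then 0.65 (SE 0.12) and 0.68 (SE 0.18) on the log2 scale. The departure of Tmem176b came nearest to 0 without replicate 1 of both, at -1.34. That of Tmem176a came nearest to 0 without NRAS replicate 3, at -0.97.

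The balance of the 2 genes within a library needs no scaling and was not itself used to pick them. It is made from the same counts, and both rows were picked for departing. Tests of the balance are therefore not free of that choice. Tmem176a made up 25.7% ± 1.31 (SD, n = 3) of the pair's counts with empty vectors and 25.6% ± 4.37 with SETBP1. The share was 22.2% ± 4.28 with NRAS and 27.2% ± 4.90 with both. Single libraries ran from 18.1% (95% exact binomial interval 13.2% to 24.0%) of 215 counts in NRAS replicate 1 to 31.0% (23.9% to 38.8%) of 158 counts in replicate 3 of both. The 4 groups overlapped one another, while the pair's summed count ranged from 114 to 1193 per library. The intervals cover counting error only.

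With against without NRAS, within SETBP1 status, the log2 ratio of Tmem176a to Tmem176b differed by -0.09 (two-sided exact permutation test over 12 libraries, p = 0.64, adjusted over 2 tests 0.64). With against without SETBP1, within NRAS status, it differed by 0.19 (two-sided exact permutation p = 0.33, adjusted 0.64). The smallest p that this design allows is 0.005. Neither test passed 0.05, and nothing is read from that, since both rows were picked for departing. The NRAS difference had no stable sign, as it was 0.0177 without replicate 2 of both and 0.00102 without SETBP1 replicate 2. It also averages 2 values of opposite sign, -0.29 for NRAS against empty and 0.12 for both against SETBP1. For both against NRAS the log2 ratio differed by 0.40, for SETBP1 against empty by -0.02, and its departure was 0.41; these single comparisons were not tested. The part of reads in the shared stretch of the 2 gene models was not tested.

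**Figure D3:**
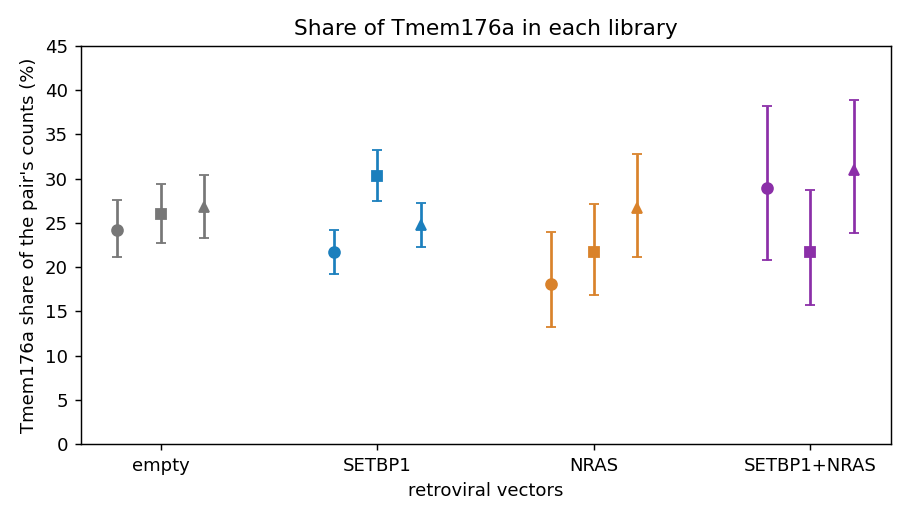
Share of Tmem176a in the summed counts of Tmem176a and Tmem176b, in percent, for each of the 12 libraries by group of retroviral vectors; bars are 95% exact binomial intervals, which cover counting error only. Shares lie between 18.1% and 31.0%, and all 4 groups overlap.

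Likeness of pattern was measured as the root mean square difference of gene-centred log2 CPM over the 12 libraries, so that a lower value means a closer pattern. Of 10992 other genes, Tmem176a was number 2 in likeness to Tmem176b and Tmem176b number 3 in likeness to Tmem176a, at a difference of 0.29. Pik3ip1, an inhibitor of PI3 kinase, was nearest to Tmem176b at 0.28. After Tmem176a came Hp (haptoglobin) at 0.30, Cited4 at 0.32 and Gngt2 at 0.32. Cd1d1, which presents lipid antigens to NKT cells, was nearest to Tmem176a at 0.27, followed by Pik3ip1 at 0.27, Tmem176b, Arl5c at 0.29 and Gbp6, an interferon-inducible GTPase, at 0.31. With 1 minus the correlation as the measure, Tmem176a became number 15 for Tmem176b and Tmem176b number 17 for Tmem176a.

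These near genes were high without NRAS and low with it, as the way they were found requires, and all shared the libraries of the pair. Hp, the most abundant, stood at 511, 541 and 453 normalised CPM in the empty libraries and at 643, 692 and 972 with SETBP1, where replicate 3 was the highest. It was at 133 ± 21.9 (SD, n = 3) with NRAS and 104 ± 7.95 with both. Pik3ip1 was at 33.5 ± 0.864 with empty vectors, 41.7 ± 6.09 with SETBP1, 9.49 ± 0.377 with NRAS and 6.90 ± 0.877 with both. Cd1d1 was at 28.6 ± 2.23, 40.7 ± 9.04, 8.98 ± 0.543 and 8.62 ± 2.71 in the same order. Departures of the 7 near genes ran from -1.09 (SE 0.38) for Gngt2 and -1.04 (SE 0.29) for Cited4, through -0.98 (SE 0.21) for Hp, -0.94 (SE 0.29) for Arl5c, -0.78 (SE 0.21) for Pik3ip1 and -0.57 (SE 0.30) for Cd1d1, to -0.42 (SE 0.26) for Gbp6. Those of Gngt2, Cited4, Hp and Arl5c lay within 1 SE of the -1.09 of Tmem176a. Choosing genes by likeness over the same libraries favours a similar departure, so nothing is read from this.

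**Figure D4:**
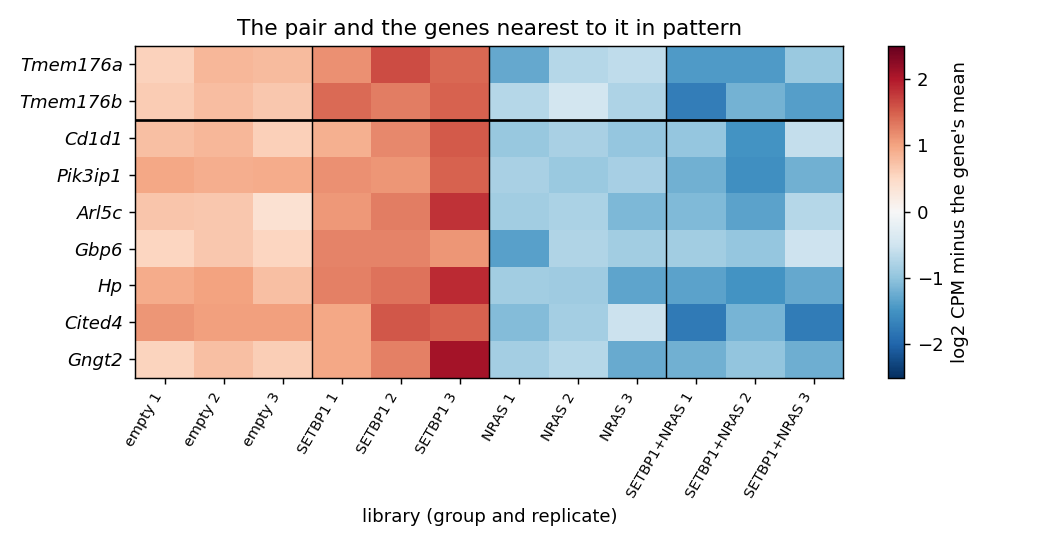
Log2 CPM minus each gene's mean over the 12 libraries, for Tmem176a, Tmem176b and the 7 other genes nearest to either in pattern; columns are libraries, rows genes, and red is above and blue under the gene's mean. Libraries without NRAS are red and libraries with NRAS blue, which the choice of these genes fixes.

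The MS4A family, which resembles the pair in its membrane topology and includes Ms4a2, a subunit of the mast cell IgE receptor, had 16 of 19 listed members in the table and 9 tested. With NRAS against empty, where Tmem176a and Tmem176b were lower, 7 of 9 fell and 0 rose. Of all genes tested, 15.5% fell and 17.0% rose, and the median log2 change was -1.18 for the family and -0.0075 for all genes. Ms4a4c, a gene of monocytes and other leukocytes, was at 63.3 ± 16.7 normalised CPM (SD, n = 3) with empty vectors and at 24.9 ± 5.34 with NRAS, and fell by 1.35 on the log2 scale (SE 0.25, edgeR adjusted p 0.00103). Ms4a2 fell by 2.54 (SE 0.26, adjusted p 6.54e-06). Ms4a8a, which also fell, had 5 to 23 counts in the empty libraries and 0 in each NRAS library. Ms4a3, Ms4a6b, Ms4a6c and Ms4a7, chosen after their values were seen, were the others that fell. Beside the 0 that rose, DESeq2 and limma-voom gave 0 as well, 1 had an unadjusted p under 0.05, and 1 rose without SETBP1 replicate 1 or SETBP1 replicate 3.

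With SETBP1 against empty, where the pair was higher, 5 of the 9 MS4A genes rose and 2 fell, with a median of 0.51. Of all genes, 8.31% rose and 6.55% fell. Ms4a4c rose to 116 ± 26.2 normalised CPM (log2 0.87, SE 0.24, edgeR adjusted p 0.0275; up to 0.124 over the alternatives, lost without empty replicate 1, empty replicate 3 or SETBP1 replicate 2 and with only the 6 libraries compared). Ms4a6b, Ms4a6c, Ms4a6d and Ms4a7, chosen after their values were seen, rose by log2 0.80, 0.51, 0.99 and 1.55. Ms4a2 and Ms4a3 fell by 1.37 and 0.30 on the log2 scale. The number that rose was 2 without empty replicate 1 or empty replicate 3, 3 without SETBP1 replicate 2 or with the replicate number as a block, and 1 with only the 6 libraries compared. The number that fell was 1 without any one of the empty replicates, with the block, or with only those 6 libraries.

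For both against NRAS, where Tmem176b was lower, 2 MS4A genes fell and 0 rose, with a median of 0.13. Of all genes, 1.38% fell and 0.528% rose. Ms4a3, chosen after its values were seen, fell by 0.58 and Ms4a4b by 1.34 on the log2 scale, the latter between 4.34 ± 0.253 normalised CPM (SD, n = 3) with NRAS and 1.70 ± 0.175 with both (SE 0.30, edgeR adjusted p 0.0385). That call of Ms4a4b was lost with the block (adjusted p 0.0665), in limma-voom (0.105) and without any one of the empty, NRAS or both libraries (up to 0.151). Beside the 0 that rose, 2 had an unadjusted p under 0.05, and 2 rose in DESeq2, 0 in limma-voom, 1 without SETBP1 replicate 1 and 2 without SETBP1 replicate 3. Ms4a4c was at 22.8 ± 7.68 with both, a difference from NRAS of log2 -0.13 (SE 0.26), within the spread. For the departure 0 of 9 passed in edgeR, DESeq2 and limma-voom, 3, all lower, had an unadjusted p under 0.05, and 1 was lower without SETBP1 replicate 1. Of all genes 0.0455% passed for the departure in edgeR and 12.9% had an unadjusted p under 0.05.

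**Figure D5:**
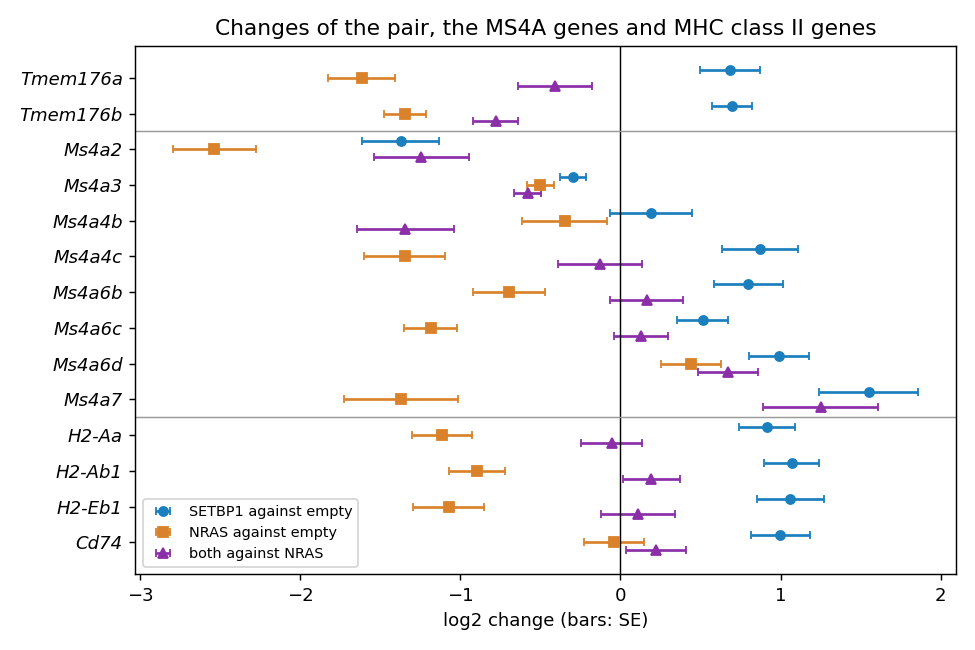
Log2 changes with their SE for Tmem176a and Tmem176b, for 8 MS4A genes tested (Ms4a8a, which had 0 counts in the NRAS libraries, is not drawn), for 3 MHC class II genes and for Cd74, in 3 comparisons; SETBP1 against empty and NRAS against empty share the empty libraries. Ms4a4c, Ms4a6b, Ms4a6c and Ms4a7 lie right of 0 with SETBP1 and left of 0 with NRAS, as the pair does, while Ms4a2 and Ms4a3 lie left of 0 in both. Ms4a6d did not follow the pair: its mean normalised CPM was 76.7 with empty vectors, 152 with SETBP1, 104 with NRAS and 166 with both. In the same order Ms4a4b was at 5.52, 6.31, 4.34 and 1.70. Ms4a4c, Ms4a6b, Ms4a6c and Ms4a7 did not pass the threshold for both against NRAS, where Tmem176b was lower. With NRAS and with both, mean normalised CPM (± SD, 3 libraries) was 30.6 ± 6.54 and 34.3 ± 9.98 for Ms4a6b. It was 44.7 ± 8.36 and 48.8 ± 5.56 for Ms4a6c, 4.32 ± 1.53 and 10.3 ± 4.29 for Ms4a7, and 24.9 ± 5.34 and 22.8 ± 7.68 for Ms4a4c. The class II genes and Cd74 were chosen after their values were seen.

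Chromosome neighbours were the 8 nearest genes of the table on each side of the pair, of which 9 of 16 were tested. The nearest on either side, Gimap3 at 62960 bases and Aoc1 at 49307 bases, had at most 2 and 5 counts in a library and were not tested. With SETBP1 against empty 2 of 9 rose (1 without empty replicate 1 or empty replicate 3 or with only the 6 libraries compared) and 0 fell, where 8.31% of all genes rose and 6.55% fell, with 2 lower at an unadjusted p under 0.05 and 0 in DESeq2 and limma-voom. With NRAS against empty 2 fell and 0 rose, where 15.5% of all genes fell and 17.0% rose. The number that fell was 1 in DESeq2, in limma-voom and with the replicate number as a block. It was also 1 without empty replicate 2, empty replicate 3, any NRAS library or replicate 1 of both. Beside the 0 that rose, 0 were higher at an unadjusted p under 0.05, in DESeq2 and in limma-voom, and 1 without NRAS replicate 1. Gimap1, a GTPase of lymphocytes, was at 10.0 ± 1.96 normalised CPM (SD, n = 3) with empty vectors and 4.80 ± 1.55 with NRAS, and fell by 1.06 on the log2 scale (SE 0.28, edgeR adjusted p 0.0109; 0.0533 without NRAS replicate 1). With SETBP1 it was at 6.36 ± 0.395 (log2 -0.65, adjusted p 0.116), where Tmem176a and Tmem176b were higher than with empty vectors.

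Gpnmb, a glycoprotein of macrophages 190570 bases from the pair, rose with SETBP1 by log2 1.64 (SE 0.26, edgeR adjusted p 0.00285). It fell with NRAS by 0.78 (SE 0.26, adjusted p 0.0363), a call lost in 8 of 22 other settings: in DESeq2 and limma-voom, with the block, and without empty replicate 2, empty replicate 3, NRAS replicate 2, NRAS replicate 3 or replicate 1 of both (up to 0.135). For both against NRAS Gpnmb rose by log2 1.59 (SE 0.27, edgeR adjusted p 0.00642), where Tmem176b was lower. It was the 1 neighbour that passed there, against 2 in DESeq2. In edgeR 0.528% of all genes rose in that comparison and 1.38% fell. Igf2bp3, an RNA-binding protein, rose with SETBP1 by log2 1.14 (SE 0.27, adjusted p 0.0171; up to 0.0879, lost without empty replicate 1 or empty replicate 3 and with only the 6 libraries compared). For the departure 0 of 9 neighbours passed in edgeR, DESeq2 and limma-voom, and 0 had an unadjusted p under 0.05. Of all genes 0.0455% passed in edgeR and 12.9% had an unadjusted p under 0.05 for the departure.

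Inflammasome genes, which encode the cytosolic complex that TMEM176B has been linked to, were all 15 tested. With NRAS against empty 5 rose and 5 fell, where 17.0% of all genes rose and 15.5% fell, with a median of -0.09. Il1b, a cytokine that the complex matures, was at 5.13 ± 0.434 normalised CPM (SD, n = 3) with empty vectors and 16.8 ± 3.18 with NRAS, and rose by log2 1.71 (SE 0.33, edgeR adjusted p 0.00134). Il18 rose by log2 0.97 (adjusted p 0.0288; up to 0.142, lost without empty replicate 2, empty replicate 3, NRAS replicate 1 or NRAS replicate 3). Nlrc4 and Mefv, both sensors, fell by 0.85 and 0.65 (adjusted p 0.00616 and 0.00199). With SETBP1 against empty 3 rose, among them Il1b by log2 2.05 and Il18 by log2 1.25, and 2 fell, where 8.31% of all genes rose and 6.55% fell, with a median of 0.11. The call of Il18 was lost without empty replicate 2 or empty replicate 3 and with only the 6 libraries compared (adjusted p up to 0.102). Without empty replicate 3, or with only those 6 libraries, 1 of the list rose and 0 fell; without empty replicate 1, 0 fell.

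Among the 15 inflammasome genes, 0 passed for both against NRAS in edgeR, DESeq2 and limma-voom, and 1 had an unadjusted p under 0.05. Of all genes 0.528% rose and 1.38% fell in that comparison, so nothing is read from the 0. For the departure, which 0.0455% of all genes passed in edgeR, 0 of the 15 passed in edgeR and limma-voom and 1, lower, in DESeq2. An unadjusted p under 0.05 was held by 6 of them, 5 lower, and by 12.9% of all genes. Without any one of the SETBP1 replicates 1 of the 15 passed, lower.

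Dendritic cell genes, 11 of 16 tested, were examined because the pair is known in those cells. With SETBP1 against empty 4 rose and 0 fell, where 8.31% of all genes rose and 6.55% fell, with a median of 0.26. The 4 were H2-Aa, H2-Ab1 and H2-Eb1, which encode MHC class II chains, and Cd74, their chaperone, all chosen after their values were seen. H2-Aa was at 61.3 ± 14.1 normalised CPM (SD, n = 3) with empty vectors and 115 ± 16.8 with SETBP1, and rose by log2 0.92 (SE 0.18, edgeR adjusted p 0.00673). H2-Ab1 rose by log2 1.07 and H2-Eb1 by log2 1.06. With only the 6 libraries compared 0 of the list rose. Beside the 0 that fell, none had an unadjusted p under 0.05, DESeq2 gave 0 and limma-voom 1.

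With NRAS against empty, where the pair was lower, 5 dendritic cell genes fell and 2 rose, where 15.5% of all genes fell and 17.0% rose, with a median of -0.89. H2-Aa fell by 1.11, H2-DMb2 by 1.22 and the class II regulator Ciita by 1.79 on the log2 scale, whereas Itgax (CD11c) rose by log2 2.69 (SE 0.37, edgeR adjusted p 9.94e-05). Cd74 was at 241 ± 44.5 normalised CPM (SD, n = 3) with empty vectors and 235 ± 16.1 with NRAS. Ciita had 4 to 8 counts per NRAS library, and its call was lost with the block, in limma-voom and without any one of 6 libraries (empty replicates 2 and 3, the 3 NRAS libraries and replicate 3 of both; adjusted p up to 0.165). The call of H2-DMb2 was lost without empty replicate 1, NRAS replicate 2 or NRAS replicate 3 (up to 0.0628). The number that fell was 3 without NRAS replicate 2 or NRAS replicate 3, and the number that rose was 1 with the block or without empty replicate 1, empty replicate 3, NRAS replicate 1 or NRAS replicate 3.

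Among the 11 dendritic cell genes, 0 passed for both against NRAS in edgeR, DESeq2 and limma-voom, 1 had an unadjusted p under 0.05, and 1 passed without SETBP1 replicate 3. Of all genes 0.528% rose and 1.38% fell in that comparison, so nothing is read from the 0. H2-Aa was at 28.2 ± 4.12 with NRAS and 27.2 ± 4.99 with both, a log2 difference of -0.06 (SE 0.19), where Tmem176b differed by -0.78. With NRAS and with both, H2-Ab1 was at 63.1 ± 5.16 and 72.1 ± 3.13, H2-Eb1 at 21.7 ± 6.08 and 23.4 ± 3.11, and Cd74 at 235 ± 16.1 and 274 ± 14.4. The list summed to 431 to 595 normalised CPM in the empty libraries, 806 to 1320 with SETBP1, 382 to 436 with NRAS and 453 to 497 with both. The genes of the list that did not pass the filter, Zbtb46, Clec9a, Xcr1, Cd209a and Siglech, summed to 51, 17, 63, 4 and 4 counts over all 12 libraries. Xcr1 had 7 to 24 counts per library with SETBP1, 1 to 3 with empty vectors, 0 to 5 with NRAS and 1 to 5 with both. Itgax, Ccr7, Flt3 and Batf3, which were tested, summed to 779, 597, 311 and 239 counts. The part of a shift in cell types in the levels of Tmem176a and Tmem176b was not tested.

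Monocyte and macrophage genes were all 15 tested. With SETBP1 against empty 7 rose (4 without empty replicate 3, 2 with only the 6 libraries compared) and 0 fell, where 8.31% of all genes rose and 6.55% fell, with a median of 0.53; 0 were lower at an unadjusted p under 0.05, in DESeq2 and in limma-voom. With NRAS against empty 7 fell and 2 rose, where 15.5% of all genes fell and 17.0% rose, with a median of -0.40. Without NRAS replicate 3, 4 fell, and 4 rose without SETBP1 replicate 3 or with only the 6 libraries compared and 1 without NRAS replicate 1. Cd14 rose, opposite to the pair, from 32.8 ± 6.26 normalised CPM (SD, n = 3) with empty vectors to 358 ± 10.4 with NRAS. C1qa fell from 34.3 ± 3.43 to 15.9 ± 6.21, and Cx3cr1, with 3 to 7 counts per NRAS library, fell as well. For both against NRAS, where Tmem176b was lower, 7 rose and 1 fell, where 0.528% of all genes rose and 1.38% fell, with a median of 0.53. C1qa rose there to 40.0 ± 9.70 normalised CPM with both, a call kept in 13 of 22 other settings. The number that rose there was 3 with the block or in limma-voom, 0 without NRAS replicate 2, and 1 to 4 without NRAS replicate 3 or any one of the empty or both libraries. None fell with the block or without any one of the empty or NRAS libraries or replicate 1 or 2 of both. The list summed to 4558 to 5067 normalised CPM in the empty libraries, 5348 to 7280 with SETBP1, 4175 to 4550 with NRAS and 4194 to 4591 with both. The largest part of each sum was Ly6c2, at 2865 ± 180 (SD, n = 3) with NRAS and 2198 ± 205 with both. The overlap of these sums between NRAS and both therefore does not describe the rest of the list. The part of these cell types in the levels of the pair was not tested.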

How the data were processed

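The authors deposited 1 table of whole-number read counts per gene symbol for 12 libraries, not normalised. RNA was isolated with an RNeasy micro kit and libraries were made with SMART-Seq chemistry for very low input, per the labels' protocols. STAR, DESeq2 and the build mm10 are named in the submitters' processing notes, with no role; the annotation, counting tool and strand setting are not given in the sources used here.

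Genes were kept by filterByExpr (minimum count 10, minimum total 15), normalised with TMM factors and fitted with edgeR 4.0.16 (glmQLFit, glmQLFTest) in R 4.3.3 as 4 group means over 12 libraries. An SE is the size of the log2 change divided by the square root of F. Log2 CPM used a prior count of 2. DESeq2 1.42.0, limma-voom (limma 3.58.1), other scalings and filters, a replicate block and leaving out each library were alternatives. The edgeR, DESeq2 and limma-voom fits were also run on simulated counts, drawn without a library that stood apart as SETBP1 replicate 3 did. No result given here rests on that run.

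The pair, the gene lists, the motifs and the tests were chosen with earlier results of these data known. Genes named were the 5 nearest to each member, up to 4 called members of each pathway list (MS4A family, inflammasome) and of the chromosome neighbours, and up to 3 of each cell type list, by size of change. Positions came from GENCODE M21 and RefSeq (GRCm38.p6). A further gene list is not reported here.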

Additional observations from a re-analysis of the deposited data

Results flagged for a closer look

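The SETBP1 change differed between marrow with and without mutant NRAS for Tmem176b, by -1.48 on the log2 scale, which is the value that the gene was picked for. Camp, a late neutrophil granule gene, differed in the same contrast by -1.55 (SE 0.24, adjusted p 0.0424 by edgeR). That call was lost in 10 of 21 other settings, with adjusted p up to 0.194, among them limma-voom and the fits without any one of the empty or both libraries or NRAS replicate 2. With SETBP1 alone Camp was lower than with empty vectors (log2 -0.58), where Tmem176b was higher.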

How the results depend on the processing

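Over 22 other settings (21 for the departure), the log2 changes of Tmem176a and Tmem176b moved by less than the spread between replicates and kept their sign. Leaving out 1 library gave a departure of -1.61 to -1.34 for Tmem176b and -1.28 to -0.97 for Tmem176a, and on the linear scale -53.0 to -46.1 and -17.9 to -12.03 normalised CPM. With the replicate number as a block the departures were -1.48 and -1.08, and the block reversed none of the pair's changes; of 18 pairs of libraries with the same number, 1 correlated above 0.1, so the numbers were not taken as pairs. The log2 ratio of the pair with against without NRAS, -0.09, was 0.0610 with 10 counts added, and -0.179 to 0.0177 when 1 library was left out (0.00102 without SETBP1 replicate 2). With 1 minus the correlation, the likeness rank of the other gene was 17 for Tmem176a and 15 for Tmem176b. The cause was not tested. Genes past the threshold for the departure, 1 higher and 4 lower, were 33 and 48 with DESeq2 and 52 and 58 without SETBP1 replicate 3. For both against NRAS, 58 and 152 became 394 and 489 with only the groups compared and 357 and 479 without SETBP1 replicate 3. For SETBP1 against empty, 913 and 720 became 63 and 47 with only the groups compared and 235 and 155 without empty replicate 3. Of 145 calls of other named genes, 34 were lost in at least 1 setting and 0 reversed. Counts of 33 to 64 per library limit Tmem176a in the groups with NRAS.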

Other observations

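Of all genes tested, 8.31% rose and 6.55% fell for SETBP1 against empty, 17.0% and 15.5% for NRAS against empty, and 0.528% and 1.38% for both against NRAS. With SETBP1 alone, where Tmem176a and Tmem176b were higher, 8 of 10 late neutrophil genes fell (median log2 -0.999; 4 with only the 6 libraries compared), with 6 of 9 mast cell and basophil genes (median -0.75; 3 without empty replicate 1 or empty replicate 3) and 2 of 5 promyelocyte genes (1 without any one of the empty replicates or with a replicate block, 0 with only those 6 libraries), while 2 of 8 stem and progenitor genes and 2 of 5 megakaryocyte genes rose (both 0 without empty replicate 1 or with only those 6 libraries). With NRAS alone, where the pair was lower, 5 of 5 promyelocyte genes fell, among them Elane by 1.47 and Mpo by 1.33 on the log2 scale, with 8 of 9 mast cell and basophil genes (5 without empty replicate 2) and 5 of 10 late neutrophil genes, while 2 of that list, Mmp9 and Cxcr2, chosen after their values were seen, rose by log2 0.96 and 1.08. Of 8 stem and progenitor genes 3 rose and 2 fell (4 fell without SETBP1 replicate 3 and 1 without empty replicate 2, empty replicate 3, NRAS replicate 1 or NRAS replicate 3), and of 5 megakaryocyte genes 2 fell (4 without SETBP1 replicate 3). For both against NRAS, where Tmem176b was lower, 8 of 10 late neutrophil, 4 of 5 promyelocyte and 3 of 9 mast cell and basophil genes fell (median -1.60, -0.58 and -1.13); the last number was 7 without SETBP1 replicate 3. The T and innate lymphoid, B cell and erythroid lists had 1 gene tested each. With NRAS against empty, Il7r rose by log2 1.78, Cd79b fell by 0.75, and Klf1 did not pass (log2 -1.02).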
